A study of Mus musculus with 4 samples.

Results

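The genes described are the chromatin enzymes and readers of 9 symbol families, followed in cultured mouse microglia (macrophages that live in brain tissue) 4 h after lipopolysaccharide (LPS). Members were all genes of the deposited count table whose mouse symbol is Kdm, Kmt, Hdac, Kat, Setd, Ezh, Tet or Brd followed directly by a digit, or starts with Dnmt. This gave 71 of 24148 genes: 18 Kdm, 11 Hdac, 8 each of Kmt, Kat, Setd and Brd, 5 Dnmt, 3 Tet and 2 Ezh genes. The rule used names and no measured value. Of the 71, 2 are not classical members of their family: Dnmt3aos is a non-coding RNA within the Dnmt3a locus, and Brd8dc is a separate protein-coding gene beside Brd8.

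The series holds 4 RNA-seq libraries, 2 from untreated control microglia and 2 from microglia given LPS, an endotoxin from bacterial cell envelopes, at 10 ng/ml for 4 h. All cells came from mixed glial cultures and were detached by shaking and plated again, with no sorting step described. Strain, sex, age and genotype of the animals are not given in the labels. Nothing in the labels ties a replicate to its own culture or animal. A p-value here therefore reflects how far the deposited samples spread, which may be a technical spread. Part of that spread followed the replicate number: deviations of same-numbered libraries from their group means correlated at 0.67 across genes. The labels do not say what the number marks.

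Histone lysine methyltransferases (Kmt, Setd, Ezh) and acetyltransferases (Kat) write marks on chromatin, and lysine demethylases (Kdm) and deacetylases (Hdac) remove them. Not every gene with such a symbol does so: Setd3 encodes a methyltransferase of actin. Bromodomain proteins (Brd) bind acetylated lysines, Dnmt enzymes methylate cytosine in DNA and Tet enzymes oxidise methylcytosine, the first step of its removal. In macrophages such enzymes act together with factors such as NF-kB when inflammatory genes are switched on, and the demethylase Kdm6b is known as a gene that inflammatory stimuli induce there.

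Of the 71 members, 43 had 10 or more counts on average across libraries and were tested. With edgeR's quasi-likelihood test, 3 of the 43 rose at an adjusted p under 0.05, against 6.55% of all 9548 genes tested, and 0 of the 43 fell, against 1.79% (8.34% of all genes in either direction). The 3 were the histone demethylase gene Kdm4a, the methylcytosine oxidase gene Tet2 and the histone H4 methyltransferase gene Kmt5a. The share of members that rose was thus near that of all genes. At an unadjusted p under 0.05 the edgeR fit held 5 members higher and 2 lower, 7 of 43, against 2033 of all 9548 genes tested. DESeq2 called 3 members higher and 0 lower, and limma-trend, run without scaling for library size, 2 higher and 0 lower. An edgeR fit with a term for replicate number (a replicate block) called 9 members higher and 4 lower. Over all genes it called 1677 higher and 1258 lower. These members are named in the last section. Calls in the text are without this block unless it is named. With scaling by total counts 1 member was called higher (Kdm4a) and 2 lower (Kdm6a and Kmt2e), and without LPS replicate 1 none was called by edgeR. Both LPS libraries lay above both controls for 14 tested members (24.7% of all genes tested) and below them for 10 (25.8%), so that the groups did not overlap for 24 of 43 members, against 50.5% of all genes. The median log2 fold change (LPS over control) was 0.02 over the 43 members and -0.05 over all genes tested. Fold changes stayed within 0.5 log2 units of 0 for 29 of 43 members, or 67.4%, and for 59.7% of all genes tested, while 4 members and 16.5% of all genes changed by a log2 of 1 or more. Because these are bulk samples, fewer cells of a type and less RNA per cell cannot be told apart.

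**Figure D1:**
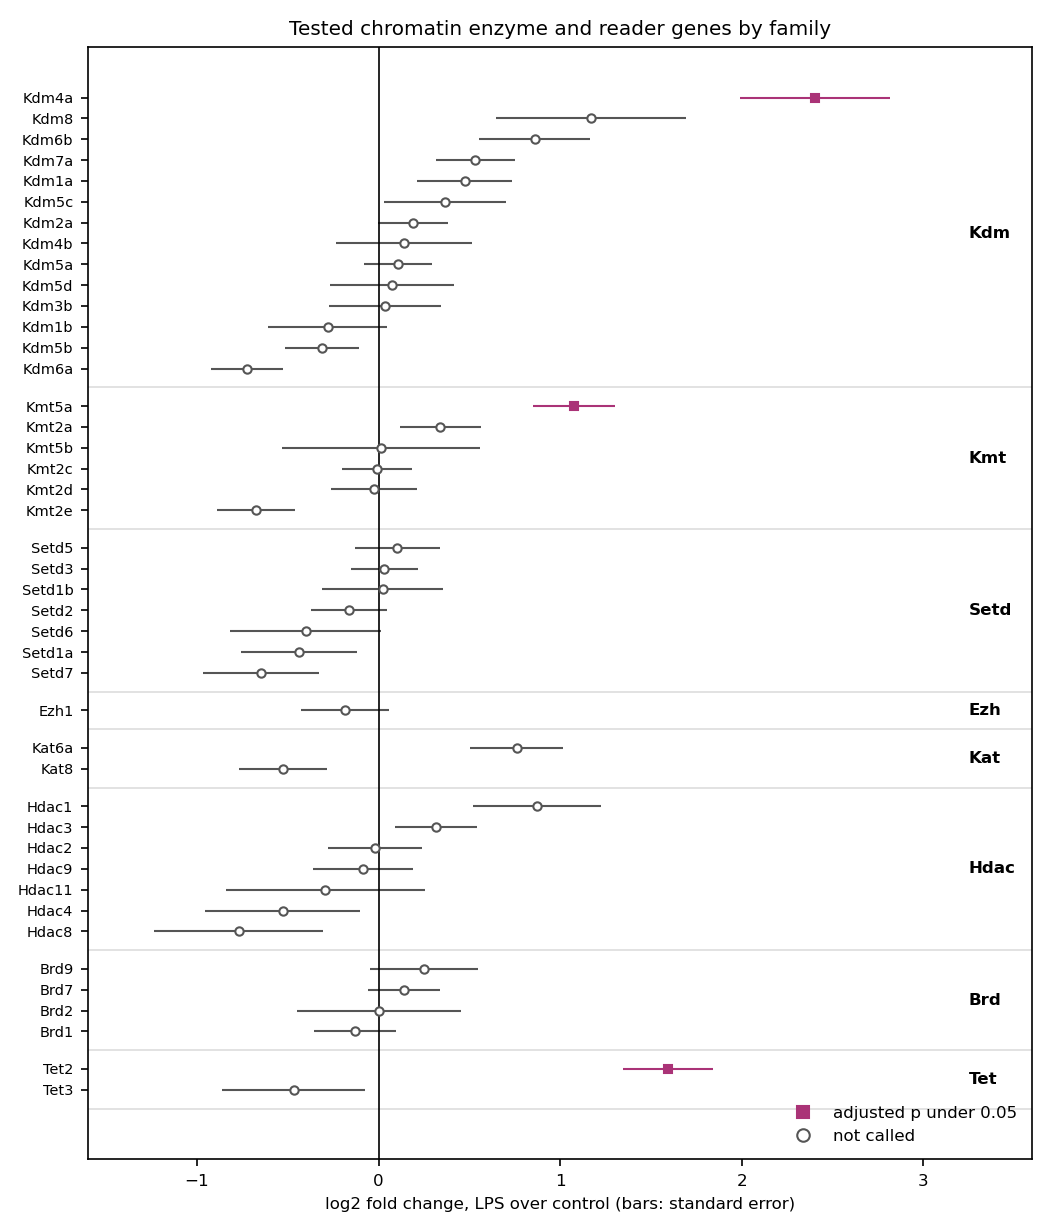
Log2 fold change of LPS over control for the 43 tested members, grouped by family, with bars for the standard error from the edgeR fit (2 libraries per group). Filled squares mark Kdm4a, Kmt5a and Tet2, the members with an adjusted p under 0.05; open circles mark members that were not called.

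The promoters of the 3 genes that rose are shown because these genes were called in the same direction. Each window runs from 250 bases before to 50 bases after a RefSeq transcript start (GRCm38.p6), is written 5′ to 3′ on the strand of the gene, and carries in capitals every match to the 5 motifs searched on both strands: NF-kB (GGG, any 5 bases, then CC), AP-1 (TGANTCA), the interferon response element core (GAAA, any 2 bases, then GAAA), E2F (TTTCCCGC) and CRE (TGACGTCA). The Tet2 window lies at chr3:133544341-133544640 (minus strand), the Kdm4a window at chr4:118179994-118180293 (minus strand) and the Kmt5a window at chr5:124439680-124439979 (plus strand).
Tet2: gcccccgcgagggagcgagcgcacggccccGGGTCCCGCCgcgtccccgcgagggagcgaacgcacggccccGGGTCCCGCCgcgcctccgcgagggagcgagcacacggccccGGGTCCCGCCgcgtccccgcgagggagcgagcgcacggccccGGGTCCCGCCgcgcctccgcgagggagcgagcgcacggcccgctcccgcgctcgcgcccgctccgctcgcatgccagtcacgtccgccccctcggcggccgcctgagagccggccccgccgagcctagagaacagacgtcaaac
Kdm4a: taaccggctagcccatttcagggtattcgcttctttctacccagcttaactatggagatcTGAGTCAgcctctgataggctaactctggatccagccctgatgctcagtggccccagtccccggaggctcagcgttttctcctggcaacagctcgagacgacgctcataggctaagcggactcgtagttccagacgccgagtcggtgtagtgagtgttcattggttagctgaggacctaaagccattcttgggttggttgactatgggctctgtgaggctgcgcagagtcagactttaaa
Kmt5a: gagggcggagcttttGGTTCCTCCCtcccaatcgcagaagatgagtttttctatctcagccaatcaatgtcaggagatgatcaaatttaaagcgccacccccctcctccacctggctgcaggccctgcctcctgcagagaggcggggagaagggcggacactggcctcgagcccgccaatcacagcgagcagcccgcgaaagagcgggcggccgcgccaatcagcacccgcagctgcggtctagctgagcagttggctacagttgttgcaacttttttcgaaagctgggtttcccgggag
The Tet2 and Kdm4a windows belong to transcript starts that lie inside the outer gene boundary. The Tet2 window lies wholly within the annotated gene, which ends at 133545136. The Tet2 window held the NF-kB letters 4 times, each as GGGTCCCGCC, starting at bases 31, 73, 115 and 157 of the window, inside a repeated stretch. The Kmt5a window held 1 match (GGTTCCTCCC, read on the other strand), and the windows of 2 further Kmt5a starts also held matches. The Kdm4a window held no NF-kB match and 1 AP-1 match (TGAGTCA, bases 61 to 67), which reads as a match on either strand. These letters are common: 50.8% of all 32851 promoter windows of this length hold the NF-kB pattern and 7.81% the AP-1 pattern. The interferon core is in 3.44% of windows, the E2F letters in 1.07% and CRE in 1.79%, and none of these 3 is in the windows printed. Among tested members, 33 genes had 42 windows in the table; 28 of these windows held the NF-kB pattern and 4 the AP-1 pattern. A match describes letters only. The shares over all windows were not matched for base composition. The Tet2 window held 57 CpG (C followed by G), against 13 in the Kdm4a window and 18 in the Kmt5a window printed. The part of base composition in the Tet2 matches was not tested.

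Total counts were 3617176 and 4080568 in control and 5095630 and 4592474 in LPS, so that both LPS libraries had the larger raw totals. The TMM factors, which multiply these totals, were 1.05 and 1.27 in control and 0.82 and 0.91 in LPS. The 71 members together took 0.233% and 0.251% of the raw counts in control and 0.211% and 0.208% in LPS, 8421 to 10733 counts per library. Scaled with TMM, the order was the other way: they summed to 2214 and 1973 CPM in control and to 2563 and 2289 CPM in LPS. The part of depth in the members' values was not tested. Of 10 microglia markers, 8 were tested and 0 called by edgeR, while 4 had an unadjusted p under 0.05 (2033 of all 9548 genes). Both LPS libraries lay below both controls for 4 of the 8 (25.8% of all genes tested) and above for 1 (24.7%). The log2 fold changes of these markers ran from -1.29 to 1.58 with a median of -0.54. Summed they stood at 2824 and 2112 CPM (counts scaled to a common library total with TMM) in control and 2261 and 1703 CPM in LPS. The markers Itgam, with no count in any library, and Trem2, with at most 2, have 2 accessions each in the table. The part of this in the members' values was not tested. Markers of other brain cells moved with the replicate number: the 10 oligodendrocyte lineage markers summed to 421 and 434 CPM in the libraries numbered 1 and to 68.7 and 61.2 CPM in those numbered 2, and the 8 astrocyte markers to 114 and 130 CPM against 310 and 440 CPM. EdgeR called 0 of the 7 tested astrocyte and 0 of the 8 tested oligodendrocyte markers between LPS and control, and none had an unadjusted p under 0.05.

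Members listed under several RefSeq accessions had far fewer counts than those listed under 1. Of the 43 members with 1 RefSeq accession, 39 were tested, with a median of 184 for the mean count. Of the 28 members with more than 1 accession, 4 were tested (Kdm4a, Hdac9, Brd2 and Kmt5b), the median mean count was 0.625 and 8 had no count in any library. Over all named genes, 46.8% of those with 1 accession and 11.7% of those with more were tested. Whether these genes had low levels or lost reads in the counting cannot be told apart here, so their levels are uncertain. The Dnmt family could not be tested at all: Dnmt1, which maintains methylation after replication, had 0 to 5 counts per library, and the de novo enzymes Dnmt3a and Dnmt3b had none. The same holds for Ezh2, a catalytic subunit of Polycomb repressive complex 2, with a single count in all, and for the BET reader Brd3, with 0 to 2 counts per library. Other members with 5 counts or fewer in each library were the acetyltransferase genes Kat14, Kat2a, Kat2b, Kat6b and Kat7, the demethylase genes Kdm2b, Kdm3a and Kdm4c, the deacetylase genes Hdac6, Hdac7 and Hdac10, Brd8, Kmt2b, Kmt5c, Dnmt3l and Tet1. Kat5 and Hdac5 had 2 to 10 counts per library. Of the members with 1 accession, Brd8dc, Dnmt3aos, Kdm4d and Setd4 lay under the minimum; Setd4 came nearest, with control counts of 10 and 16 and LPS counts of 4 and 6.

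**Figure D2:**
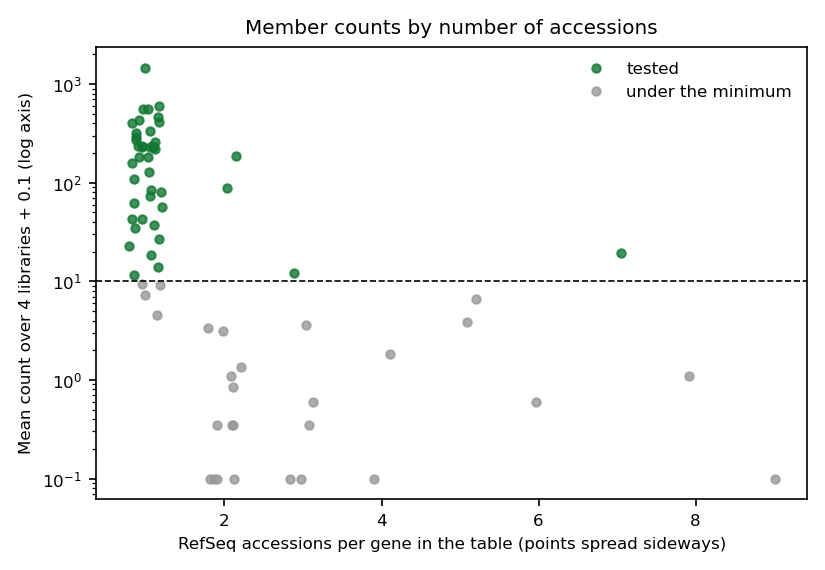
Mean count over the 4 libraries (plus 0.1, log axis) of each of the 71 members against its number of RefSeq accessions in the table. Green points were tested and grey points lay under the minimum mean of 10 (dashed line); 39 of 43 members with 1 accession lie above the line and 24 of 28 members with more lie below it.

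Among the lysine demethylases, 1 of 14 tested genes rose and 0 fell, with a median log2 fold change of 0.16 (-0.25 with total-count scaling). Over all genes tested, 6.55% rose and 1.79% fell. Kdm4a (chromosome 4, 118136957 to 118180090, GRCm38) is a JmjC enzyme that removes methyl groups from histone H3. It stood at 18.9 and 9.42 CPM in control and at 89.5 and 59.5 CPM in LPS. Both LPS libraries were more than 3 times as high as either control library. In both groups the library numbered 1 was higher than that numbered 2, as for the oligodendrocyte markers above. The part of this in the Kdm4a values was not tested. The rise was 5.30-fold (log2 2.41 ± 0.41, standard error; edgeR adjusted p = 0.024). Kdm4a has 2 accessions, of which 1 accounted for nearly all counts (72 and 47 in control, 372 and 244 in LPS). Whether reads of this gene were lost in the counting cannot be told, so its level is uncertain. The call was lost without LPS replicate 1 (2.08, edgeR adjusted p = 0.11; range over the alternatives without a block 9.6e-06 to 0.11).

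Kdm6b and Kdm6a encode the 2 related enzymes that remove the Polycomb mark from histone H3. Their values pointed in opposite directions without a call by the main edgeR test. Kdm6b (chromosome 11, 69398508 to 69420367) stood at 7.10 and 7.12 CPM in control, from 27 and 37 counts, and at 11.7 and 14.2 CPM in LPS, from 49 and 59 counts. The groups did not overlap. The log2 fold change was 0.86 ± 0.31, 1.82-fold, with an edgeR adjusted p of 0.19. With a replicate block Kdm6b was called higher (0.87, edgeR adjusted p = 0.016). Kdm6a, chosen after its values were seen, stood at 139 and 124 CPM in control and 81.9 and 77.2 CPM in LPS, so that all LPS values lay below the controls. Its log2 fold change was -0.73 ± 0.20 (edgeR adjusted p = 0.097). Kdm6a was called lower by edgeR when the minimum mean count was raised to 50 (-0.83, adjusted p = 0.045). The same held with total-count scaling (-1.15, 0.024) and with a replicate block (-0.72, 0.00017). The difference between the 2 genes was not tested.

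Kdm7a, a JmjC demethylase of repressive marks, had the most counts of all members. It stood at 316 and 247 CPM in control and 443 and 372 CPM in LPS, without overlap, with a log2 fold change of 0.53 ± 0.22 (edgeR adjusted p = 0.24). Kdm8, a JmjC protein gene near the count minimum, had the largest log2 fold change of the family without a call, 1.17 ± 0.52 (edgeR adjusted p = 0.29), with control counts of 4 and 11 and LPS counts of 18 and 13. The other 9 tested demethylase genes had values between -0.31 and 0.48, among them Kdm1a, the flavin-dependent demethylase of CoREST complexes, at 0.48 ± 0.26 (chosen after its values were seen). The Y-linked Kdm5d was detected in every library, at 7.62 to 11.3 CPM.

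Of the methyltransferases, 1 of 6 tested Kmt genes rose. EdgeR called 0 of 7 Setd genes in either direction and did not call the 1 tested Ezh gene. Over all genes tested it called 6.55% higher and 1.79% lower. DESeq2 and limma-trend called no Setd or Ezh gene either, and none had an unadjusted p under 0.05 in the main edgeR fit. With a replicate block edgeR called Setd7 lower (-0.65, adjusted p = 0.038). The Kmt median log2 fold change was 0.0037 and the Setd median -0.16 (-0.44 and -0.59 with total-count scaling). Kmt5a (chromosome 5, 124439930 to 124462311) places a single methyl group on histone H4, a mark tied to the cell cycle and chromosome condensation. Its values were 32.9 and 36.0 CPM in control and 80.0 and 65.2 CPM in LPS. The groups lay well apart, and the rise was 2.11-fold (log2 1.08 ± 0.22, edgeR adjusted p = 0.046). The call was lost without control replicate 1 (1.00, edgeR adjusted p = 0.13), control replicate 2 (1.11, 0.083), LPS replicate 1 (0.92, 0.32) or LPS replicate 2 (1.22, 0.13), in limma-trend (0.98, 0.17) and with total-count scaling (0.64, 0.18; range over the alternatives without a block 0.019 to 0.32).

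Because Kmt5a is linked to cell division, proliferation genes are given beside it. Of 20 such genes 14 were tested, with a median log2 fold change of -0.20. EdgeR called 2 higher and 0 lower, against 6.55% and 1.79% of all genes tested. Mki67, the Ki-67 antigen gene, rose by 2.88 ± 0.30 (edgeR adjusted p = 0.0046) and Pcna, the sliding clamp of DNA polymerases, by 0.89 ± 0.19 (0.046). The call of Pcna was lost without any 1 of the 4 libraries, in limma-trend and with total-count scaling (adjusted p up to 0.32). Top2a and Cdk1, which also mark dividing cells, had values of -0.04 and -0.34 without a call. The part of cell division in the Kmt5a result was not tested.

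Kmt2e, a SET-domain protein gene, was the 1 tested Kmt gene with both LPS libraries below both controls. It stood at 52.0 and 51.5 CPM in control and 34.4 and 30.5 CPM in LPS. The log2 fold change was -0.68 ± 0.21 (edgeR adjusted p = 0.14). Kmt2e was called lower by edgeR with total-count scaling (-1.11, adjusted p = 0.044) and with a replicate block (-0.68, 0.0030). Kmt2c, which methylates histone H3 at enhancers and had the most counts of the family, stood at 98.1 and 93.1 CPM in control and 93.6 and 96.4 CPM in LPS. These groups overlapped, with a log2 fold change of -0.0083 ± 0.19 (edgeR adjusted p = 0.99).

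Setd3, an actin histidine methyltransferase, had the most counts of its family and the highest level per transcript length of the 39 tested members with 1 accession in both groups. It stood at 130 and 127 CPM in control and 134 and 129 CPM in LPS, which overlapped, with a log2 fold change of 0.03 ± 0.18 (edgeR adjusted p = 0.95). Setd7, a monomethyltransferase of histone H3 and of other proteins, stood at 16.6 and 18.3 CPM in control and 8.83 and 13.4 CPM in LPS. Both LPS libraries were lower, but the log2 fold change of -0.65 ± 0.32 was not called (edgeR adjusted p = 0.34). The other 5 Setd genes lay between -0.44 and 0.10. Ezh1, the Polycomb methyltransferase that could be measured, stood at 33.1 and 29.4 CPM in control and 30.3 and 24.7 CPM in LPS, with overlap and a log2 fold change of -0.18 ± 0.24 (edgeR adjusted p = 0.76).

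**Figure D3:**
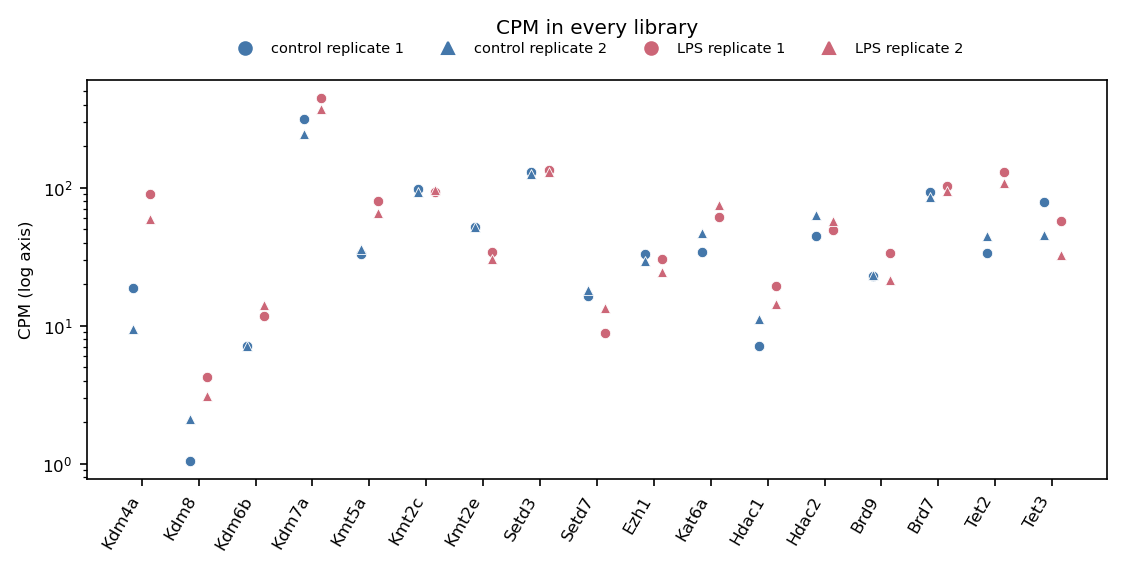
CPM in each of the 4 libraries (log axis). Blue marks control and red LPS, circles replicate 1 and triangles replicate 2. Shown are the called members, Kdm6b, and in each family the member with the most counts and the uncalled member with the largest change. Kdm6a and Kat8, chosen after their values were seen, are not shown. Kdm4a, Kmt5a and Tet2 show LPS points well above the control points, Kmt2e and Setd7 show them below, and Setd3 and Kmt2c show them side by side.

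In the acetylation families edgeR called 0 of 2 Kat, 0 of 7 Hdac and 0 of 4 Brd genes in either direction. Over all genes tested it called 8.34%. At an unadjusted p under 0.05 the family counts were 1, 0 and 0, and DESeq2 and limma-trend called none of these genes. With a replicate block edgeR called Kat6a (0.77, adjusted p = 0.00052) and Hdac1 (0.85, 0.016) higher. Kat6a, a MYST acetyltransferase that works in Brpf complexes, stood at 34.2 and 46.7 CPM in control and 61.8 and 75.6 CPM in LPS. Both LPS libraries were above both controls, with a log2 fold change of 0.76 ± 0.26 (edgeR adjusted p = 0.17). Kat8, a MYST acetyltransferase of histone H4 and chosen after its values were seen, stood at 21.6 and 21.5 CPM in control and 15.0 and 14.9 CPM in LPS. The 2 libraries of each group nearly coincided, yet the log2 fold change of -0.53 ± 0.24 was not called (edgeR adjusted p = 0.31).

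Hdac1, a class I deacetylase of the Sin3, NuRD and CoREST complexes, stood at 7.10 and 11.2 CPM in control and 19.3 and 14.4 CPM in LPS, from 27, 58, 81 and 60 counts. The groups did not overlap, and the log2 fold change was 0.87 ± 0.35 (edgeR adjusted p = 0.24). Its partner Hdac2 had the most counts of the family, with 44.7 and 63.8 CPM in control and 49.7 and 57.6 CPM in LPS. The LPS values lay within the control range, and the log2 fold change was -0.02 ± 0.26 (edgeR adjusted p = 0.98). The remaining deacetylase genes spread from -0.77 for Hdac8 to 0.32 for Hdac3, the catalytic subunit of NCoR complexes.

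Brd7 and Brd9 encode bromodomain subunits of different SWI/SNF remodelling complexes. Brd7 stood at 93.8 and 85.0 CPM in control and 103 and 94.3 CPM in LPS, with a log2 fold change of 0.14 ± 0.20 (edgeR adjusted p = 0.78). Its lower LPS library was barely above its higher control library. Brd9 stood at 23.1 and 23.3 CPM in control and at 33.7 and 21.6 CPM in LPS, so that 1 LPS library was above and 1 below the controls (0.25 ± 0.30, adjusted p = 0.72). The spread of the 4 tested Brd genes, -0.13 to 0.25, was the narrowest of the families with more than 2 tested genes.

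For DNA demethylation, Tet2 and Tet3 were tested. Tet2 (chromosome 3, 133463677 to 133545136) stood at 33.6 and 44.8 CPM in control and 130 and 107 CPM in LPS, from 128, 233, 544 and 448 counts. Every LPS value exceeded 2 times either control value. The rise was 3.02-fold (log2 1.59 ± 0.25, edgeR adjusted p = 0.018). The call was lost without LPS replicate 1 (1.45, edgeR adjusted p = 0.11), without LPS replicate 2 (1.72, 0.054) and with total-count scaling (1.14, 0.062; range over the alternatives without a block 8.9e-05 to 0.11). Tet3, which has the same activity, stood at 79.4 and 45.6 CPM in control and 57.5 and 32.6 CPM in LPS. Its libraries numbered 1 were higher than those numbered 2 in both groups, and the groups overlapped. The log2 fold change of -0.47 ± 0.39 was not called (edgeR adjusted p = 0.59). With a replicate block edgeR called Tet3 lower (-0.47, adjusted p = 0.024). The oligodendrocyte markers above were also higher in the 2 libraries numbered 1, and their part in the Tet3 spread was not tested. Kdm4a, Kdm5c, Kdm7a and Kdm1a were among the members with the same order in both groups. Kat6a and Hdac2 were among those with the reverse order. Tet1, with 2 accessions, had 0 to 2 counts per library. The difference between Tet2 and Tet3 was not tested.

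Levels can be compared between members only per transcript length, which was known for the 39 tested members with 1 accession, Kdm4a not among them. In control, Setd3 led with 46.7 ± 0.938 CPM per kb (SD, n = 2), followed by Kdm7a with 29.4 ± 5.15, Hdac2 with 27.1 ± 6.76 and Brd7 with 24.7 ± 1.73 CPM per kb. Kdm7a, Hdac2 and Brd7 did not differ beyond their spread. In LPS the level was 47.7 ± 1.26 CPM per kb for Setd3 and 42.6 ± 5.27 for Kdm7a, which differed by less than the SD of Kdm7a. Kmt5a went from 12.6 ± 0.801 to 26.5 ± 3.81 CPM per kb, a level beside those of Brd7 (27.2 ± 1.64) and Hdac2 (26.7 ± 2.79). Tet2 went from 4.27 ± 0.860 CPM per kb, near Tet3 (5.73 ± 2.19), to 12.9 ± 1.73, against 4.13 ± 1.62 CPM per kb for Tet3. Kdm6b was among the lowest, at 1.07 CPM per kb in control and 1.94 ± 0.261 in LPS, while Kdm6a stood at 22.2 ± 1.84 and 13.4 ± 0.555 CPM per kb.

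**Figure D4:**
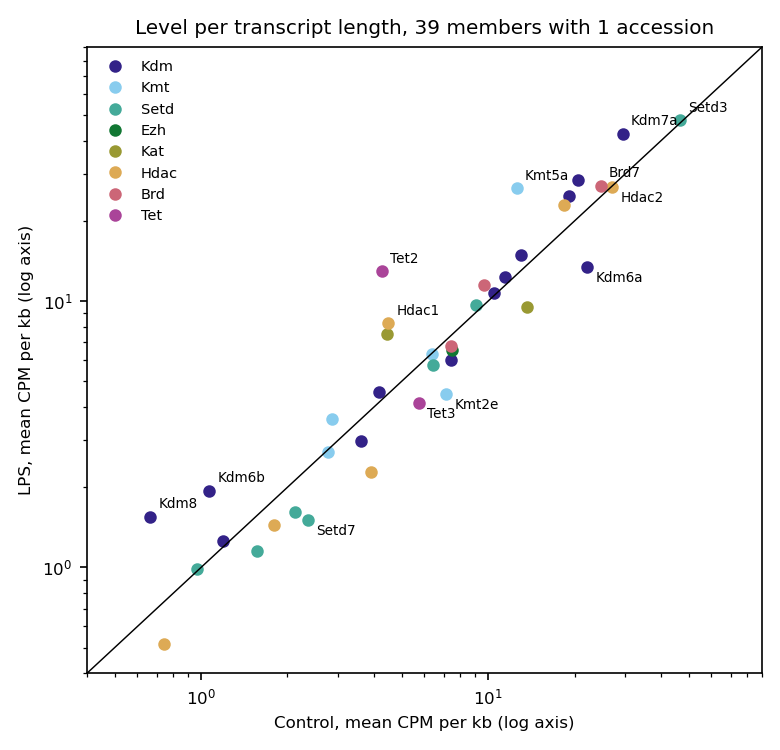
Mean CPM per kb of transcript in LPS against control (log axes, 2 libraries each) for the 39 tested members with 1 accession, coloured by family, with the line of equal level. Tet2, Kmt5a, Kdm6b and Kdm8 lie above the line, Kdm6a, Kmt2e, Tet3 and Setd7 below it, and Setd3 on it at the top.

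Other genes of the same machinery were read from 10 lists of related chromatin genes, 170 symbols in all. Of the 114 tested, edgeR called 5 higher and 4 lower, against 6.55% and 1.79% of all 9548 genes tested. Their median log2 fold change was 0.02. DESeq2 called 6 and 4, limma-trend 5 and 3. At an unadjusted p under 0.05 the edgeR fit held 20 of the 114, against 2033 of all 9548 genes. The lists without a call by edgeR were Polycomb repressive complex 2 partners (5 tested), COMPASS core subunits (8), other histone methyltransferases (16), other JmjC proteins (11) and sirtuins (1); at an unadjusted p under 0.05 they held 1, 0, 2, 2 and 0 genes.

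The genes with the largest increases were readers. Among 20 tested bromodomain and chromodomain readers 2 rose and 0 fell, against 6.55% and 1.79% of all genes tested. Sp100, a nuclear body protein gene, went from 13.4 ± 1.46 to 233 ± 35.3 CPM (SD, n = 2; log2 4.11 ± 0.25, edgeR adjusted p = 0.00086), and its relative Sp140 from 32.8 ± 2.87 to 409 ± 42.3 CPM (3.64 ± 0.22, 0.00083). Both belong to a family known to be interferon-inducible. In Polycomb repressive complex 1, 1 of 12 genes rose: Pcgf5, a ring-finger subunit, went from 11.8 ± 2.59 to 90.5 ± 21.2 CPM (2.93 ± 0.30, edgeR adjusted p = 0.0046).

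Corepressor genes and DNA methylation partners held calls in both directions. Over all genes tested, 6.55% were called higher and 1.79% lower. Fold changes stayed within 0.5 log2 units of 0 for 12 of 15 corepressor genes (median -0.08). The same held for 5 of 12 DNA methylation partners and readers (median -0.32). Among 15 tested corepressor genes, Sap30, a subunit of Sin3 complexes that contain Hdac1 and Hdac2, rose by 2.44 ± 0.21, from 33.2 ± 0.884 to 180.4 ± 15.0 CPM (edgeR adjusted p = 0.0024), and Tbl1xr1, a subunit of NCoR complexes, fell by 1.20 on the log2 scale (0.022). Among 12 DNA methylation partners and readers, Gadd45b, linked to DNA demethylation and stress, rose by 2.66 ± 0.21 (edgeR adjusted p = 0.0021), while Zbtb4 and Zbtb38, zinc finger proteins that bind methylated DNA, fell by 1.56 (0.016) and 1.10 (0.0498). Among 14 acetyltransferases and scaffolds, Ing4, a subunit of HBO1 complexes, fell by 1.41 (edgeR adjusted p = 0.024). The 5 increases were called in every alternative run. The decreases were not: without LPS replicate 1 or LPS replicate 2 no related gene was called lower by edgeR, and without control replicate 1 Ing4 (-1.21, edgeR adjusted p = 0.060) and Zbtb38 (-0.96, 0.17) were not. Zbtb38 also lost its call with relative log expression scaling (0.053), in limma-trend (0.072) and without a filter (0.080).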

How the data were processed

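RNA was sequenced from 2 control and 2 LPS libraries of primary mouse microglia. The submitters' processing notes list TopHat2 2.0.10 and HTSeq 0.6.1, with Trimmomatic 0.33, Cufflinks 2.2.1, CASAVA 1.8.2 and build mm10. What each program did, and with which annotation, counting mode and strand setting, is not given in the sources used here, so overlapping and antisense genes such as Dnmt3aos and Dnmt3a may share reads. The deposited counts are whole numbers for 32915 RefSeq accessions in a single table by the authors, which its name calls normalized; the totals differ between libraries and no header states a scaling, so the values were treated as counts. Accessions were matched to symbols with a RefSeq table of GRCm38.p6 (32487) and GENCODE metadata (187), 241 staying unmatched, and summed per symbol; 0 columns were left unused.

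Genes averaging 10 counts or more were tested with edgeR 4.0.16 (R 4.3.3) by the quasi-likelihood test, two-sided, with TMM scaling, no covariate and Benjamini-Hochberg adjustment over all 9548 genes; calls are at an adjusted p under 0.05. Standard errors are the log2 fold change over the square root of F. The test was checked on simulated data. The 2 libraries of a group were not the same library deposited again: chi-square divided by its degrees of freedom was 34.3 for control and 25.4 for LPS. Alternatives were DESeq2 1.42.0, limma-trend 3.58.1 on log2(count + 1), other scalings, filters and accessions, a replicate block and leaving out each library. The limma-trend fit used no scaling for library size. CPM per kb divides CPM by the GENCODE transcript length of the accession. Promoter sequences are from RefSeq; 56 of 71 members matched. Values in every library are given for called members, Kdm6b, and in each family the member with the most counts and the uncalled member with the largest change; related genes are named where called. Hdac3, Hdac8, Kat8, Kdm1a, Kdm5c, Kdm5d and Kdm6a were added after their values were seen. The members and lists were chosen with earlier results of these data known. The values of 1 untested member are not reported here.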

Additional observations from a re-analysis of the deposited data

How the results depend on the processing

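The count of members called higher (3) was 1 with total-count scaling and 0 to 2 when 1 library was left out; that of members called lower (0) was 2 with total-count scaling, 1 with a minimum mean count of 50 and 0 without any 1 library. In edgeR with a replicate block there were 9 members called higher and 4 lower (Hdac1, Kat6a, Kdm1a, Kdm5c, Kdm6b and Kdm7a joined the 3 that rose; Kdm6a, Kmt2e, Setd7 and Tet3 were lower), and over all genes 1677 higher and 1258 lower, against 625 and 171; without LPS replicate 1 these were 335 and 33, and without LPS replicate 2 435 and 39. Lower calls over all genes were 483 with total-count scaling and 260 without control replicate 2. Deviations of same-numbered libraries from their group means correlated at 0.67 across genes, but the labels do not say that a number marks a shared culture or day. With the block 23 related genes were higher and 14 lower, against 5 and 4; 7 were lower with total-count scaling and 0 to 4 with 1 library left out.

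Total-count scaling moved the all-gene median (log2) from -0.05 to -0.48 and the share of calls that were higher from 78.5% to 49.4%, so directions near 0 depend on it: the values became -0.28 for Brd7, -0.19 for Brd9, -0.39 for Setd3 and -0.035 for Kdm5c. Other sign changes concerned uncalled values near 0: Kmt2c was 0.0067 with relative log expression scaling, 0.0068 in DESeq2 and 0.098 without a filter, Hdac2 was 0.087 without a filter, and Setd3 was -0.057 in limma-trend and -0.069 with a minimum mean count of 50. With 1 library left out the ranges were -0.10 to 0.54 for Brd9, -0.26 to 0.24 for Hdac2, -0.017 to 0.81 for Kdm5c, -0.072 to 0.020 for Kmt2c and -0.015 to 0.059 for Setd3. The cause was not tested. Leaving out 1 library also leaves 1 sample in an arm, assumed to vary like the other group. Members with several accessions were mostly too shallow to test.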
